A study of Mus musculus with 6 samples.

Results

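The miR-29 family was examined in miRNA-seq of white adipose tissue (WAT) from ApoE-deficient mice. Its 3 mature members, miR-29a-3p, miR-29b-3p and miR-29c-3p, were taken from the 707 mature miRNAs of the deposited counts by their miRBase accessions, which are MIMAT0000535, MIMAT0000127 and MIMAT0000536 in this order. The rule used the accessions and no threshold on these counts, although the family was chosen with earlier results of these data known. All 6 libraries came from male mice that lack apolipoprotein E, the protein that clears lipoproteins from the blood. The CIH group (n = 3) was kept under chronic intermittent hypoxia (CIH), repeated cycles of low and normal oxygen that model obstructive sleep apnea, for 8 weeks, and the control group (n = 3) was not. No library of a wild-type mouse entered the comparison, so the part of ApoE deficiency cannot be told apart. The sources do not name the fat depot and do not give the age of the mice. They also do not say in words that each library is 1 mouse. The p-values therefore set the difference between the groups against the spread between libraries, which may not be that between mice.

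The family is known as a brake on the extracellular matrix. Its members bind the mRNAs of many collagens and of elastin through a shared seed, the short stretch near the 5′ end that pairs with target mRNAs, and they lower the amount of protein made. In fat, muscle and liver the family is also known for targets in insulin signaling, and in fibrotic tissue it is often low. The RNA here came from whole tissue, in which adipocytes, fibroblasts, vessels and immune cells are mixed, so fewer cells of a type and less RNA per cell cannot be told apart. The counts list miRNAs by accession only, with no table to translate these into names. The 5p arms of the family, other miRNAs linked to fibrosis or insulin signaling, and miRNAs typical of adipocytes or of other cell types are therefore not analysed here, and the tissue label was not checked against markers.

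The 3 mature sequences are shown because they set what the family binds and how well sequencing reads tell its members apart. They are written 5′ to 3′ from RefSeq (GRCm38.p6), with the seed (bases 2 to 8) in capitals.
miR-29a-3p: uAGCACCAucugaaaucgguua
miR-29b-3p: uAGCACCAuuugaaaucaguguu
miR-29c-3p: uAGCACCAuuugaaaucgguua
All 3 carry the same seed, and none of the other mature miRNAs among 1679 names in the RefSeq table carries it. Counted from the 5′ end, miR-29a-3p and miR-29c-3p differ at 1 of 22 positions (C10U). From miR-29a-3p to miR-29b-3p there are 4 differences (C10U, G18A, U21G and A22U), and miR-29b-3p is 1 base longer. A read of miR-29a-3p with 1 changed base can therefore be counted for miR-29c-3p, depending on the mismatches that the authors' counting allowed, which are not given in the sources used here. No other row had the same counts as a member in all 6 libraries.

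The 3 members come from 4 hairpins, which form a pair on each of 2 chromosomes. They are shown because miR-29b-3p is encoded at 2 loci, and the same mature sequence (in capitals) sits in different hairpins.
Mir29a, chr6:31062660-31062747, minus strand: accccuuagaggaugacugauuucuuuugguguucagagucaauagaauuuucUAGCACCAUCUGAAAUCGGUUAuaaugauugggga
Mir29b-1, chr6:31063023-31063093, minus strand: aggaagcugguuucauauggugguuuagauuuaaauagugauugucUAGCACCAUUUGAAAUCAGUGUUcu
Mir29b-2, chr1:195037040-195037120, plus strand: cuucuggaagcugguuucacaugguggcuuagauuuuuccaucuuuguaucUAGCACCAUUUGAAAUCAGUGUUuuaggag
Mir29c, chr1:195037547-195037634, plus strand: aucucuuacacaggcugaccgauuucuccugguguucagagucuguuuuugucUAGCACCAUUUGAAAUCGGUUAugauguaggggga
On chromosome 6, 275 bases separate Mir29a from Mir29b-1. Mir29a overlaps no other gene of GENCODE release M21, and Mir29b-1 touches the end of an exon of the noncoding gene Gm27019 on the same strand. On chromosome 1, 426 bases separate Mir29b-2 from Mir29c, and both lie in an exon of the noncoding gene A330023F24Rik and, on the other strand, in the last exon of Cd46, which encodes a complement regulator. Counts of miR-29b-3p sum the output of both pairs, and the mature sequence does not tell which pair a read came from.

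To show what the shared seed can pair with, the 3′ UTRs of GENCODE release M21 were searched for the 7-base match TGGTGCT, the reverse complement of the seed, on the transcript strand. The longest 3′ UTR of each of 21004 protein-coding genes was used. A match was found for 25 of the 44 collagen genes (56.8%), against 11.2% of the 5543 genes whose 3′ UTR had a length between the quartiles of the collagen genes (781 to 1763 bases). With an adenine after it (TGGTGCTA, which holds the shorter match), 16 collagen genes (36.4%) had a match, against 2.07% of the genes of that length. Of 15 other matrix genes, 7 (46.7%) held the 7-base match, against 12.3% at their length. Of 15 insulin signaling genes, 7 (46.7%) also held it, against 29.1% at their longer lengths. The collagen genes were taken by symbol and the other lists from general knowledge, and the shares are descriptions of the annotation, not of these libraries.

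The following sites are shown as examples of what the members would pair with in matrix and insulin signaling genes. Each is written 5′ to 3′ in the sense of the mRNA (GRCm38), with the match in capitals and its last base opposite base 1 of the miRNA.
Col1a1, chr11:94952524-94952545, plus strand: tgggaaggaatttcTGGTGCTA
Col3a1, chr1:45348968-45348989, plus strand: tcaaaatgtctcaaTGGTGCTA
Col4a1, chr8:11199761-11199782, minus strand: ccaccgtcacaacaTGGTGCTA
Eln, chr5:134703736-134703757, minus strand: gacctcatcaacgtTGGTGCTA
Irs1, chr1:82233373-82233394, minus strand: tcatctgaagatggTGGTGCTA
Col1a1 and Col3a1 encode the main fibrillar collagens of loose connective tissue, Col4a1 encodes a chain of basement membrane collagen, Eln encodes elastin, and Irs1 encodes an adaptor of the insulin receptor. Elastin had 3 matches in its 3′ UTR, and Col4a5 and Col5a1 had 3 and 4. Col1a2, Fn1, Dcn and Insr had no 7-base match in the 3′ UTR searched, which says only that these letters are not there. No mRNA was measured in these libraries, so the matches were not set against target levels.

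**Figure D1:**
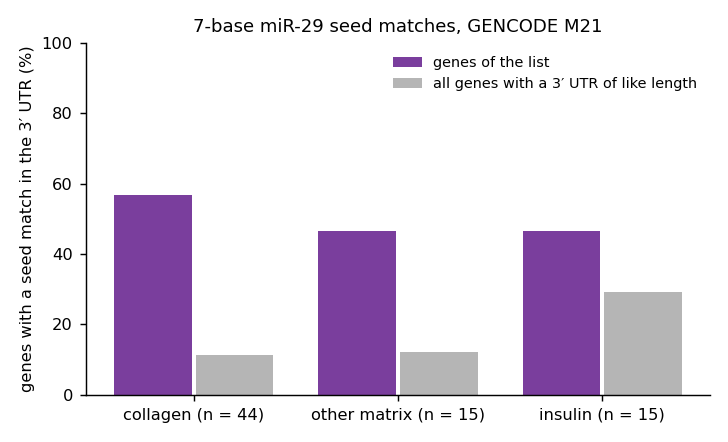
Share of genes (percent, vertical axis) whose 3′ UTR holds the 7-base seed match, for the collagen, other matrix and insulin signaling genes (purple) and for all genes with a 3′ UTR of like length (grey). The purple bar is 56.8% against 11.2% for collagens, 46.7% against 12.3% for other matrix genes and 46.7% against 29.1% for insulin signaling genes.

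The libraries held between 636963 and 4783768 counts on mature miRNAs. Across the 633 miRNAs tested, log2 CPM of control 3 correlated with the CIH libraries at 0.958 to 0.974 and with control 1 and control 2 at 0.595 and 0.661 (across miRNAs, which are not independent replicates), so values without control 3 are given beside each test. The family took between 0.168% of the counts in control 1 and 0.616% in control 3, with 0.385% to 0.574% in the CIH libraries. That is 2291 to 26111 reads per library, which leaves counting error small for miR-29a-3p and largest for miR-29c-3p.

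The 3 members kept one order in every library. miR-29a-3p, which has 1 locus, was the most abundant, miR-29b-3p, which has 2 loci, came next, and miR-29c-3p was the least abundant. The ratio of miR-29a-3p to miR-29b-3p counts ran from 4.18 in CIH 1 to 11.7 in control 2. That of miR-29b-3p to miR-29c-3p ran from 2.50 in control 1 to 6.36 in control 3. The lowest level of miR-29a-3p, 2399 TMM-normalized CPM, lay above the highest level of miR-29b-3p, 911, and the lowest of miR-29b-3p, 369, lay above the highest of miR-29c-3p, 173. TMM-normalized CPM are counts scaled to a common library size after a correction for library composition. The mature sequences are 22 or 23 bases long and a read can span them end to end, so length hardly enters these ratios. Ligation and amplification bias between sequences were not tested.

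miR-29a-3p was the member with the highest level and did not pass the test between the groups. It had 1885, 23390 and 4343 counts in control 1, 2 and 3, and 4742, 2912 and 3214 counts in CIH 1, 2 and 3. Its TMM-normalized CPM were 2399, 5643 and 3915 in control 1, 2 and 3, and 3808, 3146 and 3486 in CIH 1, 2 and 3. The CIH libraries lay close together, between the lowest and the highest control library. The control samples had a mean of 3986 ± 1623 (SD, n = 3), and the CIH samples had a mean of 3480 ± 331 (SD, n = 3). By count it ranked between 22nd and 38th of the 707 miRNAs. The log2 fold change was -0.20 (standard error 0.62, 95% interval -1.67 to 1.28, quasi-likelihood test of edgeR, adjusted p = 0.912). Without control 3 it was -0.23 (adjusted p = 0.792), and without control 2, the library with the highest level, it turned to 0.21 (adjusted p = 0.967).

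When counts were scaled by library totals alone, the picture of miR-29a-3p moved. Its CPM were then 1380, 4889 and 5478 in control 1, 2 and 3, and 3005, 3948 and 5046 in CIH 1, 2 and 3. Control 1 lay lowest and control 3 highest, and the log2 fold change was 0.03 (quasi-likelihood test of edgeR, adjusted p = 0.997). The direction of miR-29a-3p between the groups thus depended on the scaling.

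miR-29b-3p, which differs from the other members in its 3′ end, had the higher mean in the CIH group, and with TMM normalization this rested on 1 library. It had 290, 2002 and 471 counts in control 1, 2 and 3, and 1134, 406 and 377 counts in CIH 1, 2 and 3. The TMM-normalized CPM were 369, 483 and 425 for the control samples, and 911, 439 and 409 for the CIH samples. CIH 1 stood far above all others, while CIH 2 and CIH 3 lay within the control range. The means were 426 ± 56.95 (SD, n = 3) and 586 ± 281 (SD, n = 3) in the control and the CIH group. The log2 fold change was 0.46 (standard error 0.60, 95% interval -0.98 to 1.90, quasi-likelihood test of edgeR, adjusted p = 0.882). Without CIH 1 it was 0.03 (adjusted p = 0.995), and without control 3 it was 0.44 (adjusted p = 0.577). When scaled by library totals, the CPM were 212, 418 and 594 in control 1, 2 and 3, and 719, 550 and 592 in CIH 1, 2 and 3. CIH 1 was then still the highest library but stood less apart, the mean of CIH 2 and CIH 3 was 571 against 408 in the control group, and the log2 fold change was 0.60 (adjusted p = 0.972). With upper-quartile factors the sign turned, to -0.17 (adjusted p = 0.911).

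miR-29c-3p, the least abundant member, had levels whose order across the libraries depended on the scaling. Its counts were 116, 719 and 74 in control 1, 2 and 3, and 205, 64 and 68 in CIH 1, 2 and 3. Its TMM-normalized CPM were 148, 173 and 66.7 for the control samples, and 165, 69.1 and 73.8 for the CIH samples. On this scale control 1, control 2 and CIH 1 were high, and control 3, CIH 2 and CIH 3 were low, with no library between 73.8 and 148. When scaled by library totals, the CPM were 84.9, 150.3 and 93.3 in control 1, 2 and 3, and 129.9, 86.8 and 106.8 in CIH 1, 2 and 3. Control 1 was then the lowest library and the gap was absent. The TMM factors were 0.575, 0.866 and 1.40 in control 1, 2 and 3, and 0.789, 1.26 and 1.45 in CIH 1, 2 and 3. The libraries that were high with TMM normalization were those with a factor under 1. The mean of the TMM-normalized CPM was 129 ± 55.7 (SD, n = 3) for control samples and 103 ± 53.8 (SD, n = 3) for CIH samples. The log2 fold change was -0.33 (standard error 0.66, 95% interval -1.91 to 1.24, quasi-likelihood test of edgeR, adjusted p = 0.889). Without CIH 1 it was -0.83 (adjusted p = 0.917), without control 3 it was -0.66 (adjusted p = 0.415), and without control 2 it was 0.00016 (adjusted p = 0.9998). With library totals it was -0.02 (adjusted p = 0.997).

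**Figure D2:**
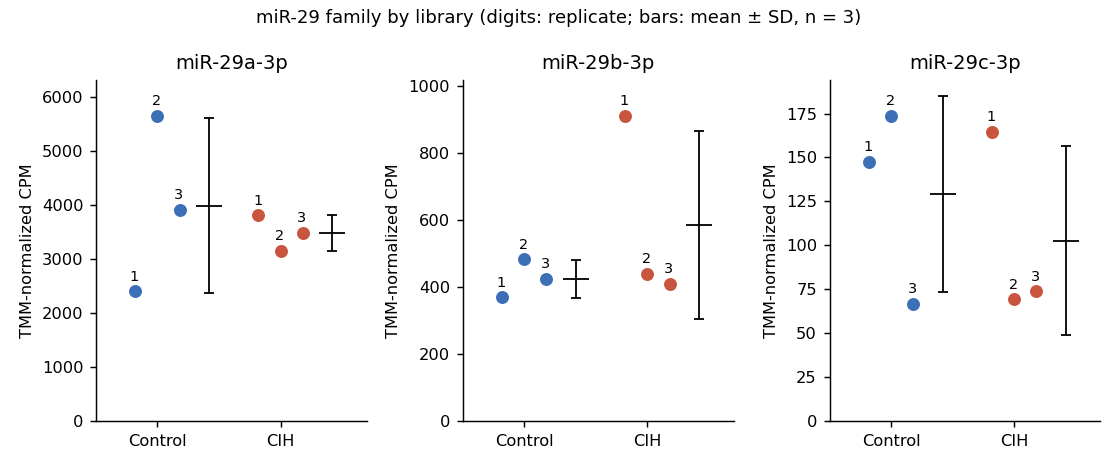
TMM-normalized CPM (vertical axes, from 0) of the 3 members in the control (blue) and CIH (red) libraries, with the replicate number above each point and the mean ± SD (n = 3) as bars. The groups overlap for all 3 members, CIH 1 stands at 911 for miR-29b-3p, and control 3 lies with CIH 2 and CIH 3 for miR-29c-3p on this scale.

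None of the 3 members reached an adjusted p-value under 0.05, and 0% of the 633 miRNAs tested did. At an unadjusted p-value under 0.05 the count was also 0 of 3 members, against 16 miRNAs (2.53%) of all tested, and the members' unadjusted p-values were 0.761, 0.469 and 0.628. The groups did not overlap for 0 of 3 members and for 51 (8.06%) of all miRNAs tested. With 3 members, these counts of 0 do not set the family apart from such shares. Without control 3, 118 of 614 miRNAs (19.2%) passed this adjusted threshold, and no member was among them. Control 3 was singled out from these same counts, as the control library most like the CIH libraries. Leaving out such a library favors a larger count by construction, so the 118 are not an independent background for the members. Leaving out any other single library gave 0. The median log2 fold change was -0.20 over the 3 members and 0.07 over all miRNAs tested. Of all miRNAs tested, 87.5% had a larger absolute log2 fold change than miR-29a-3p, 72.2% a larger one than miR-29b-3p and 79.8% a larger one than miR-29c-3p. The intervals show the limit of 3 libraries against 3. On the fold scale they ran from 0.313 to 2.43 for miR-29a-3p, from 0.509 to 3.73 for miR-29b-3p and from 0.267 to 2.36 for miR-29c-3p, so a change of 2-fold in either direction lay inside the interval of miR-29a-3p and miR-29c-3p.

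**Figure D3:**
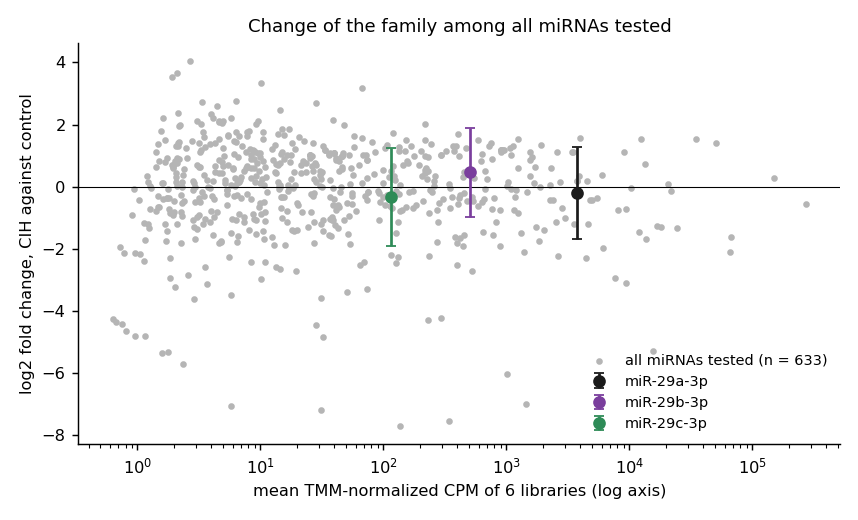
Log2 fold change of CIH against control (vertical axis) over the mean TMM-normalized CPM of the 6 libraries (log axis) for the 633 miRNAs tested (grey), with the 3 members in color and their 95% intervals as bars. Each member's interval includes 0, and the members lie in the middle of the grey points.

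The spread of the members was set against miRNAs of like abundance, those with a mean within a factor of 2, and it depended on the scaling. With TMM normalization, in the control group, the coefficient of variation was 40.7% for miR-29a-3p, where the median of 30 such miRNAs was 62.9%. It was 13.4% for miR-29b-3p, and 64 of the 67 miRNAs of like abundance varied more. For miR-29c-3p it was 43.1%, against a median of 84.9% over 79 miRNAs. In the CIH group, miR-29a-3p varied by 9.51%, less than 29 of the 30 miRNAs of like abundance, while miR-29b-3p and miR-29c-3p varied by 48.0% and 52.5%, more than the medians of 24.0% and 26.4%. With library totals, a setting added after seeing the data, the CIH values were 25.5% for miR-29a-3p, 14.1% for miR-29b-3p and 20.02% for miR-29c-3p, so the order of the members changed. The control values were then 56.6%, 46.8% and 32.5% in the same order. On that scale each member varied less than the median of the miRNAs of like abundance in both groups, where those medians were 72.0%, 80.6% and 91.5% in the control group and 33.5%, 32.0% and 37.3% in the CIH group.

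The composition of the family was compared as the share of each member in the summed counts of the 3, which no scaling between libraries can change. miR-29a-3p made up 82.3%, 89.6% and 88.9% of the family in control 1, 2 and 3, and 78.0%, 86.1% and 87.8% in CIH 1, 2 and 3. The shares of miR-29b-3p were 12.7%, 7.67% and 9.64% for the control samples, and 18.6%, 12.0% and 10.3% for the CIH samples. Those of miR-29c-3p were 5.06%, 2.75% and 1.51% for the control samples, and 3.37%, 1.89% and 1.86% for the CIH samples. The libraries of a group differed by more than counting error. The 95% Wilson intervals of miR-29b-3p, for example, were 11.4% to 14.1% in control 1 and 7.35% to 7.996% in control 2, and 17.7% to 19.6% in CIH 1 and 9.36% to 11.3% in CIH 3. These intervals cover counting error only.

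Between the groups, no difference in share over all 6 libraries reached the smallest p-value that the design allows. The share of miR-29b-3p was 9.99% ± 2.51 (SD, n = 3) for control samples and 13.7% ± 4.41 (SD, n = 3) for CIH samples, a difference of 3.67 percentage points (two-sided exact permutation test, p = 0.3). That of miR-29a-3p was 86.9% ± 4.02 and 84.0% ± 5.26 (SD, n = 3 each; same exact permutation test, p = 0.5). For miR-29c-3p the shares were 3.11% ± 1.80 and 2.37% ± 0.864 (SD, n = 3 each; same exact permutation test, p = 0.7). With 3 libraries against 3, this test cannot give a p-value under 0.1, and with 1 library left out it cannot give one under 0.2. Without control 3, the difference of miR-29b-3p was 3.49 percentage points (same exact permutation test, p = 0.6), and without CIH 1 it fell to 1.17 percentage points (p = 0.6 from the same exact permutation test). The differences of miR-29a-3p and miR-29c-3p without control 3 were -1.95 and -1.53 percentage points (same exact permutation test, p = 0.8 and p = 0.4). That of miR-29a-3p turned to 0.0679 percentage points without CIH 1 and was -5.24 percentage points without control 1, and that of miR-29c-3p turned to 0.240 percentage points without control 1.

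**Figure D4:**
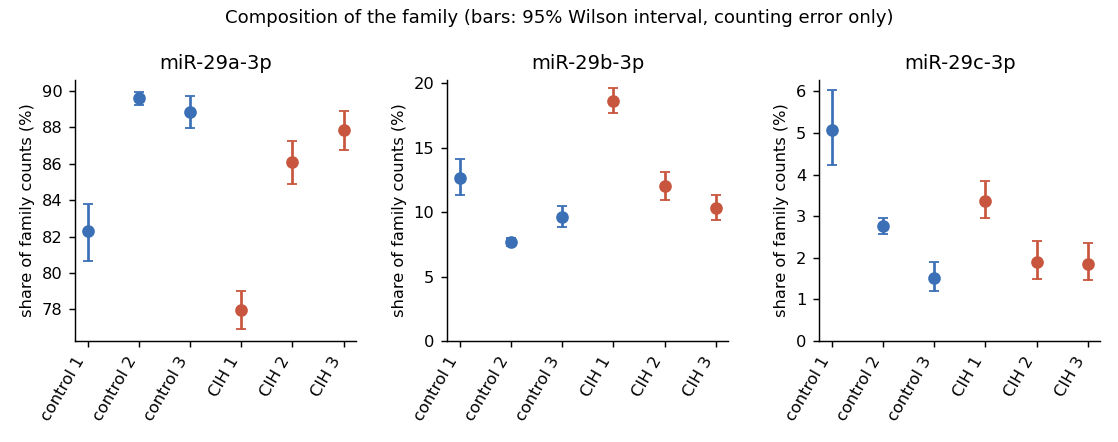
Share of each member in the summed counts of the family (percent, vertical axes; that of miR-29a-3p does not start at 0) in each library, with 95% Wilson intervals that cover counting error only. Control libraries are blue and CIH libraries red, and CIH 1 has the lowest share of miR-29a-3p (78.0%) and the highest of miR-29b-3p (18.6%).

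Among the 2 members with the lower levels, the balance separated libraries within the control group. miR-29c-3p made up 28.6% of the summed counts of miR-29b-3p and miR-29c-3p in control 1 (95% Wilson interval 24.4% to 33.2%) and 26.4% in control 2 (24.8% to 28.1%). In control 3 it made up 13.6% (11.0% to 16.7%), and in CIH 1, 2 and 3 it made up 15.3% (13.5% to 17.3%), 13.6% (10.8% to 17.0%) and 15.3% (12.2% to 18.9%). The interval of control 3 overlapped those of all 3 CIH libraries and neither of those of control 1 and control 2. This ratio was chosen after its values were seen and was not tested between the groups. Among the reads of miR-29a-3p and miR-29c-3p, which differ by 1 base, miR-29c-3p made up 5.80%, 2.98% and 1.68% in control 1, 2 and 3. It made up 4.14%, 2.15% and 2.07% in CIH 1, 2 and 3. CIH 1 thus lay above control 2, and this ratio did not group the libraries in the same way. How many of these reads were miR-29a-3p reads with a changed base was not tested.

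**Figure D5:**
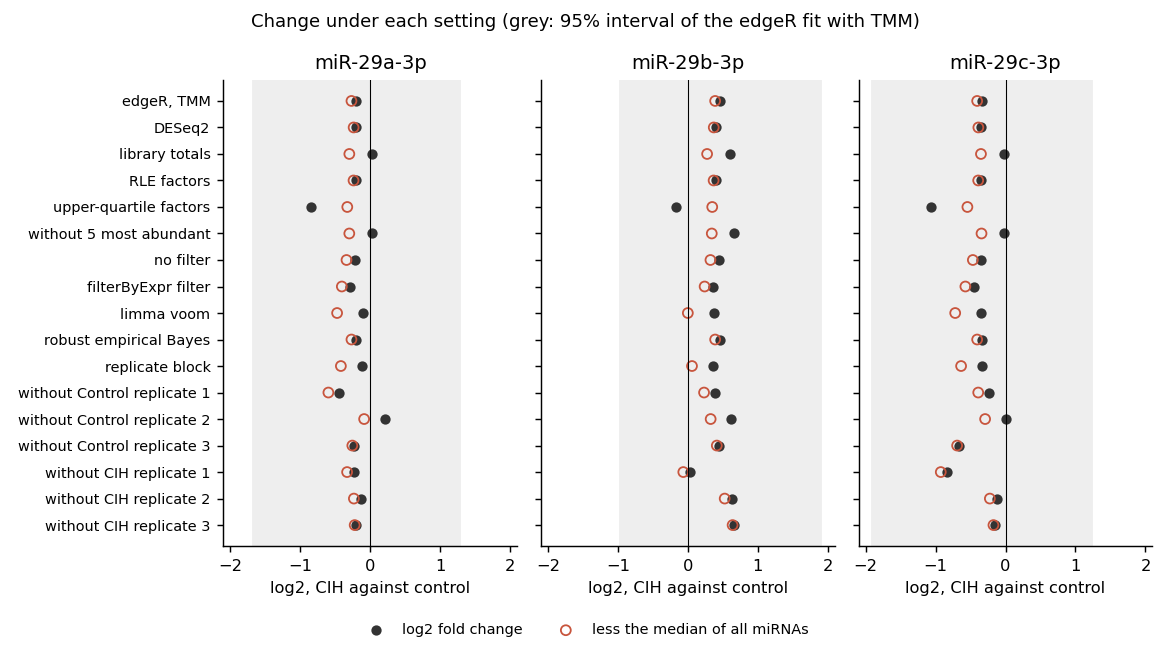
Log2 fold change of CIH against control for each member under each setting (black points), and the same less the median of all miRNAs tested in that setting (open red circles), with the 95% interval of the edgeR fit with TMM normalization in grey. The black points of miR-29a-3p and miR-29b-3p change side with the scaling. The open circles of miR-29a-3p and miR-29c-3p lie below 0 in all 17 settings. Subtracting the median removes most of a shift by scaling by construction.

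Each member was also set against the median of all miRNAs. A change of scaling shifts all miRNAs by about the same amount. Subtracting the median therefore removes most of that shift by construction. Library totals, upper-quartile factors and library sizes without the 5 most abundant miRNAs moved that median from 0.07 to 0.33, -0.52 and 0.32 on the log2 scale. After this median was subtracted, miR-29a-3p lay below it in 17 of 17 settings (-0.60 to -0.09), and miR-29c-3p did so too (-0.93 to -0.17). miR-29b-3p lay above the median in 15 settings and up to 0.64 above it, was the median miRNA itself with limma voom, and lay 0.06 below it without CIH 1. These settings share most of their libraries, and the robust prior gave the same fold changes as edgeR with TMM normalization. The counts of settings are therefore not counts of independent results. No setting gave a member an adjusted p-value under 0.05.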

How the data were processed

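Total RNA of WAT was extracted with TRIzol, and small RNA libraries were sequenced on an Illumina instrument. The authors deposited raw read counts per mature miRNA, without normalization, and replicates were not pooled. Trimming, aligner, miRNA database release, allowed mismatches and treatment of multiply matching reads are not given in the sources used here. These choices bear on the split between miR-29a-3p and miR-29c-3p.

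Libraries were grouped by their labels, and all 6 columns of counts were used. miRNAs with under 10 counts in total were left out, and the other 633 were compared with the quasi-likelihood test of edgeR 4.0.16 in R 4.3.3 (TMM normalization, a design of group alone), with Benjamini-Hochberg adjustment over all of them. Standard errors and 95% intervals were computed from the fold change, the test statistic and its degrees of freedom. Shares within the family were compared with two-sided exact permutation tests (scipy 1.17.1), with Wilson intervals for single libraries. The alternatives were DESeq2 1.42.0, limma 3.58.1 with voom, other scalings and filters, a robust prior, a replicate block, and the omission of single libraries. The fit was also run on simulated data with large known changes, which cannot show how well it finds small ones. Chi-square statistics of the counts of any pair of libraries were far above their degrees of freedom, so no library was a re-read of another. Each library was taken as 1 replicate, although these statistics cannot show that each came from a different mouse. The miRNAs named were the 3 members and, for each, the miRNA most like it over the 6 libraries, the first of the 3 that the rule took. The 5p arms and lists by name of the same rule were not analysed here. The members and lists were chosen with earlier results of these data known. Sequences came from RefSeq (GRCm38.p6) and GENCODE release M21 (GRCm38).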

Additional observations from a re-analysis of the deposited data

How the results depend on the processing

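No member had an adjusted p-value under 0.05 in any of the 16 alternatives run for each. The smallest adjusted p-values were 0.709 for miR-29a-3p, 0.577 for miR-29b-3p and 0.415 for miR-29c-3p. The log2 fold change of miR-29a-3p kept its sign in 13 of the 16 and turned to 0.031 with library totals, 0.021 with library sizes without the 5 most abundant miRNAs, and 0.21 without control 2, within a range of -0.44 to 0.21 over the 6 libraries left out in turn. That of miR-29b-3p kept its sign in 15 and turned to -0.17 with upper-quartile factors (0.03 to 0.66 with each library left out). That of miR-29c-3p kept its sign in 15 and lay between -0.83 and 0.00016 when single libraries were left out, where it turned without control 2. For the scalings, the median of all miRNAs moved with the members; for the libraries left out, the cause was not tested. The share of miR-29a-3p differed by -5.24 to 0.0679 percentage points with each library left out and turned without CIH 1, that of miR-29b-3p by 1.17 to 5.34, and that of miR-29c-3p by -1.53 to 0.240, turning without control 1. The log2 ratio of a member to the other 2 kept all 3 directions.

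Over all miRNAs, 0 passed the adjusted threshold with edgeR, DESeq2 and limma voom, and 0 to 118 with each library left out, where 118 came without control 3. At an unadjusted p-value under 0.05 it was 16 with edgeR's original settings, 26 with DESeq2, 39 with upper-quartile factors, 8 with the filterByExpr filter, 75 with limma voom, 3 with the replicate block, and 1 to 225 with each library left out.

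Both groups have replicates 1 to 3 in their labels. Deviations from the group mean correlated at 0.353, -0.116 and 0.0195 across miRNAs between libraries of one number. Libraries of unlike number were not compared in this way, so these values cannot decide whether a pairing exists. No pairing was assumed. With the replicate block, the log2 fold changes were -0.12, 0.36 and -0.33 for miR-29a-3p, miR-29b-3p and miR-29c-3p, and no call changed. The planned library sizes without markers of other cell types were not run, since accessions could not be translated into names. The lowest counts of a member were 64 to 74, for miR-29c-3p in control 3, CIH 2 and CIH 3. Its standard error of 0.66 was still close to the 0.62 of miR-29a-3p, which had far more counts.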

Other observations

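Among the 201 other miRNAs with a mean of at least 100 TMM-normalized CPM, the level most like that of miR-29a-3p over the 6 libraries was that of MIMAT0000537 (Pearson's r 0.937, Spearman's rho 0.657, on log2 CPM with a prior count of 2). For miR-29c-3p it was MIMAT0000126 (r 0.953, rho 0.543), and for miR-29b-3p it was MIMAT0000130 (r 0.765, rho 0.486). The likeness exceeded 0.9 for 8 of the 201 miRNAs with miR-29a-3p, 4 with miR-29c-3p and 0 with miR-29b-3p. Each is the highest of 201 values, the 6 points share library depth and scaling, and control 1 and control 2 stand apart from the other 4 libraries, so these values are descriptions and were not tested. Between the members themselves, which were not among the 201, r was 0.33 (rho 0.60) for miR-29a-3p with miR-29b-3p. It was 0.22 (rho 0.26) for miR-29a-3p with miR-29c-3p and 0.47 (rho 0.43) for miR-29b-3p with miR-29c-3p. By r, no member came as close to another member as the most like miRNA did. By rho, miR-29a-3p with miR-29b-3p lay above the 0.486 of the miRNA most like miR-29b-3p. It lay below the 0.657 of the miRNA most like miR-29a-3p.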
